A study of Homo sapiens with 4 samples.

Results

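Clustered histone genes lie side by side on chromosomes 6 and 1 and make the bulk histones of the nucleosome. They were taken as every gene in the deposited table whose name starts with HIST1H, HIST2H or HIST3H, leaving out names that mark a pseudogene. This gave 74 gene names at 70 of the 56753 loci in the table. Of these 70 loci, 5 carry several gene names and so 1 shared value, and 1 of the 5 also names a gene outside the set.

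The libraries came from 786-O cells, an established renal cancer line of the clear cell type, which had stably taken up PRDM16 lentivirus (2 libraries) or a control vector (2 libraries). PRDM16 is a zinc finger protein that regulates transcription, and the comparison asks how its overexpression changes the transcriptome of these cells. RNA-seq was made from total RNA, and values are FPKM, the fragments per kilobase of a transcript after scaling for the size of the library. Nothing in the labels tells whether the replicates came from separate cultures, so each p-value measures only how these libraries vary, which may be technical.

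Most clustered histone genes are transcribed in S phase, when new DNA has to be packed. Their main mRNAs have no introns and end in a conserved stem-loop bound by SLBP in place of a poly(A) tail, and a library made by poly(A) selection captures few of them. Some members also give longer, polyadenylated transcripts, known from cells that have stopped dividing. The sources used here do not give the RNA selection behind these libraries.

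The stem-loop is the feature that sets these mRNAs apart, and it is shown here for the members of highest level that have it in an annotated transcript. Each line gives the RNA-sense sequence as DNA letters, 5′ to 3′, from GENCODE release 29 transcripts, with the 6 bases of each stem arm in capitals, the 4 loop bases and 5 flanking bases on each side in lower case. The intervals are on GRCh38 and cover the 16 bases of stem and loop.
HIST1H2AC, chr6:26124669-26124684, plus strand: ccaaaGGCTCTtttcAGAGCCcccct
HIST1H2BC, chr6:26123472-26123487, minus strand: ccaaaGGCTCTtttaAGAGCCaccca
HIST1H2BD, chr6:26158587-26158602, plus strand: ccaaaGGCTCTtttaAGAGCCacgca
HIST1H4H, chr6:26285131-26285146, minus strand: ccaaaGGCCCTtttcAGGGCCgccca

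The motif searched on the transcript strand was a left arm GGCNCT, a loop TNTN and a right arm AGNGCC with nothing between them, N being any base, and 34 of the 74 members had it in an annotated transcript. The version with TTTC in the loop and the stem of HIST1H2AC was found in 18 members, and that of HIST1H2BC and HIST1H2BD in 5. The version of HIST1H4H was found in 4 members. In 24 members an annotated transcript runs on for at least 100 bases past the stem-loop, among them HIST1H2AC, HIST1H2BC and HIST1H4H. For the other 40 members no annotated transcript holds these letters, which says only that the motif is not in the annotated stretch. The HIST1H2BK model, for example, is 381 bases long and has no annotated intron.

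All 74 members are in GENCODE release 29, with 69 annotated as protein-coding and 5 as pseudogene types. On chromosome 6 lie 55 members, between bases 25726132 and 27893843 of GRCh38, and 19 lie on chromosome 1.

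The PRDM16 transgene set the groups apart. PRDM16 (chromosome 1) had 1226 and 1146 FPKM in the PRDM16 libraries, against 0.0157 and 0.234 FPKM in the control vector libraries. Values summed over all loci were between 556213 and 574003 FPKM per library. PAX8, VIM and KRT8, markers of this line, were high in every library, while the leukocyte and endothelial markers PTPRC, CD3E, PECAM1, VWF and CDH5 were all under 0.110 FPKM. PAX2 was lower, at 4.62 to 5.37 FPKM, and the macrophage marker CD68 could not be read, since its locus (362 to 477 FPKM) also names EIF4A1 and other genes. The second control vector library stood apart in S phase genes, whose values are given beside the histone results they touch.

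Clustered histone transcripts were present at low levels in both groups. Of the 70 loci, 49 were above 0 in at least 1 library, 31 were above 0 in every library and 21 were listed at 0 throughout. Only 8 loci, 11.4% of the members, reached a mean of 1 FPKM over the 4 libraries, a level met by 23.3% of all loci in the table. By contrast, 70.0% of the members and 49.9% of all loci were above 0 somewhere. The number of members above 0 was 42 and 37 in the PRDM16 libraries, against 38 and 42 in the control vector libraries. The median of the mean level over the 49 detected loci was 0.153 FPKM. Loci naming 11 mitochondrially encoded genes are also listed at 0 in every library, so a 0 may be a failed estimate and is given here only as listed.

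The level was concentrated in a few members. HIST1H2BK, a gene for a core H2B histone, made up 35.7% of the summed FPKM of all members, and the 8 loci of mean 1 FPKM or more made up 79.8%. A list of 5 members reported to give polyadenylated transcripts too (HIST1H1C, HIST1H2AC, HIST1H2BD, HIST1H2BK and HIST2H2BE) held 64.4% of the sum, and 4 of its members are among the 8. The testis genes HIST1H1T, HIST1H2AA, HIST1H2BA and HIST3H3 were all listed at 0.

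**Figure D1:**
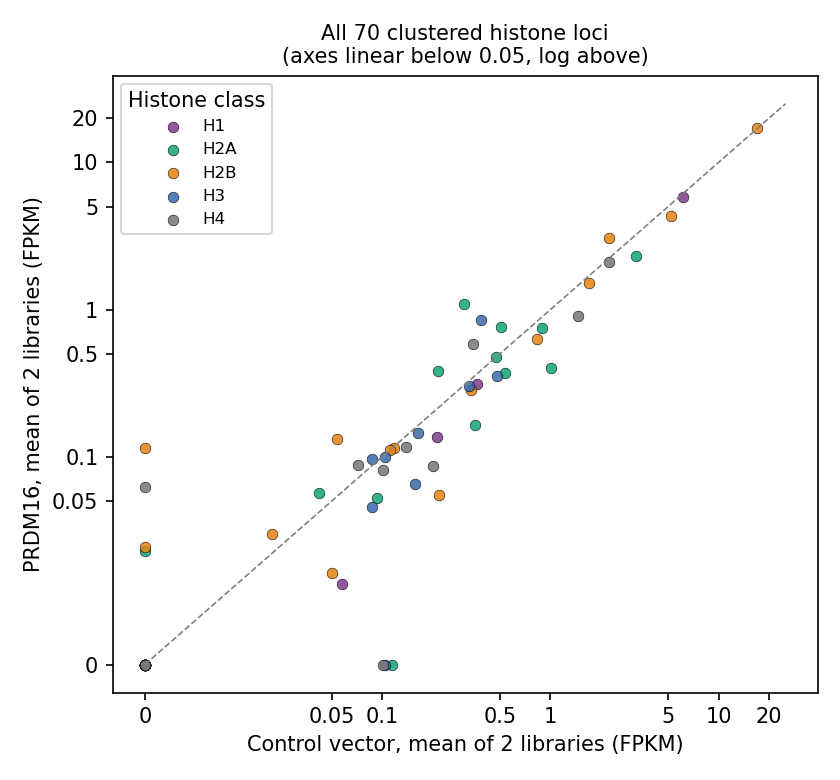
Mean FPKM of each of the 70 clustered histone loci in PRDM16 libraries (vertical axis) against control vector libraries (horizontal axis), n = 2 libraries each, coloured by histone class; axes are linear below 0.05 FPKM and logarithmic above, and the dashed line marks equal values. HIST1H2BK sits alone at the top right near 17 FPKM, most loci lie below 1 FPKM, and the 21 loci listed at 0 share the corner point.

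Summed over all members, the level did not separate the groups. The sum was 46.7 and 46.9 FPKM in the PRDM16 libraries, against 52.4 and 45.2 FPKM in the control vector libraries. Both PRDM16 values lay between the control vector values, and the ratio of means was 0.959. A two-sided exact permutation test gave p = 1.0, and with 2 libraries against 2 it could not go below 0.33. The ratio was 1.04 without the first control vector library.

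By the role of the protein, the sums overlapped between groups for H1, H2B and H3, and not for H2A and H4. A lack of overlap is common with 2 libraries against 2. Of all tested loci, 21.1% were higher and 20.3% lower in both PRDM16 libraries, so these sums are given as description only. A locus naming genes of several classes was counted with the class of its leading name. The linker histones H1, which bind DNA between nucleosomes, summed to 6.17 and 6.33 FPKM in PRDM16 libraries, against 7.49 and 6.02 FPKM in control vector libraries. H2A and H2B form the dimers at the outside of the nucleosome. H2B was the largest class, with 27.9 and 27.5 FPKM in PRDM16 libraries, against 30.0 and 25.4 FPKM in control vector libraries. H2A summed to 6.87 and 6.83 FPKM in PRDM16 libraries, against 7.89 and 7.66 FPKM in control vector libraries, a ratio of 0.881 with no overlap between the groups. Its members did not move together, since HIST1H2AC, HIST2H2AC and HIST1H2AH were lower in both PRDM16 libraries, HIST1H2AD was higher in both and the others overlapped or were listed at 0. H3 and H4 form the central tetramer. H3 summed to 2.04 and 1.88 FPKM in PRDM16 libraries, against 2.09 and 1.70 FPKM in control vector libraries. H4 summed to 3.69 and 4.37 FPKM in PRDM16 libraries, against 4.92 and 4.37 FPKM in control vector libraries, a ratio of 0.867. The higher PRDM16 value for H4 lay just below the lower control vector value, so the gap was far smaller than the spread within either group.

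Only loci of mean 1 FPKM or more entered the test, limma on log2(FPKM + 1) with Benjamini-Hochberg adjustment over all 13246 such loci. That test called 3 loci in the whole table, 0.0226% of those tested, and PRDM16 was among them. None of the 8 histone loci passed, with limma adjusted p from 0.689 to 0.947, and 0 of the 8 had an unadjusted p under 0.05, a level reached by 6.12% of all loci tested. Of the 8, the log2 change was above 0 for 2 and below 0 for 6. The median log2 change of the 8 was −0.08, and that of all loci tested was 0.00. The median SE was 0.18 for the 8 and 0.13 for all loci tested.

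**Figure D2:**
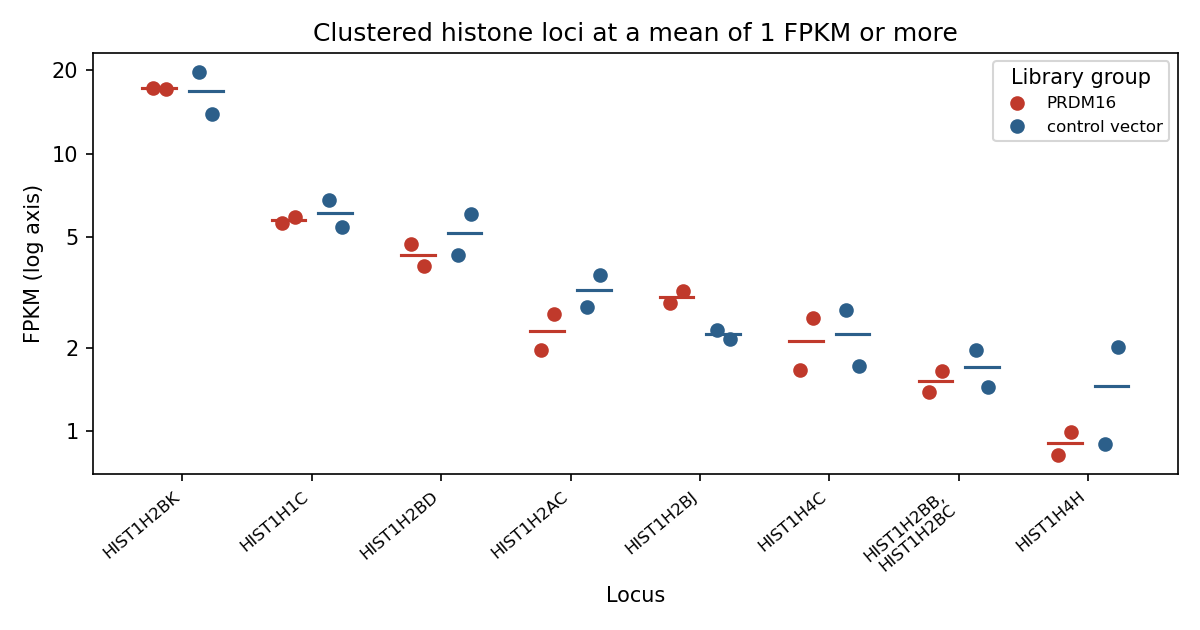
FPKM on a log axis in each library for the 8 clustered histone loci of mean 1 FPKM or more, PRDM16 in red and control vector in blue; points are libraries and lines are means of 2. The groups overlap at 6 loci, while both PRDM16 points lie below both control vector points for HIST1H2AC and above them for HIST1H2BJ.

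HIST1H1C, a linker histone gene (chromosome 6, bases 26055787 to 26056428, minus strand), had 5.62 and 5.93 FPKM in PRDM16 libraries, against 6.80 and 5.44 FPKM in control vector libraries. The groups overlapped, with a log2 change of −0.06 (SE 0.14). Of the other H1 genes, HIST1H1E averaged 0.339 FPKM over the 4 libraries, and HIST1H1A and HIST1H1T were listed at 0.

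HIST1H2AC, an H2A gene (chromosome 6, bases 26124145 to 26139116, plus strand), had 1.96 and 2.65 FPKM in PRDM16 libraries, against 2.79 and 3.66 FPKM in control vector libraries. Both PRDM16 values were lower, though the gap between the nearest libraries was small. The means were 2.30 ± 0.484 FPKM in PRDM16 libraries and 3.23 ± 0.615 FPKM in control vector libraries (SD, n = 2 each). The log2 change of −0.36 (SE 0.18) did not pass the test, with a limma adjusted p of 0.689.

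HIST1H2BK (chromosome 6, bases 27146418 to 27146798, minus strand) had 17.3 and 17.1 FPKM in PRDM16 libraries, against 19.7 and 14.0 FPKM in control vector libraries. The PRDM16 values lay together between the control vector values, with a log2 change of 0.05 (SE 0.18). HIST1H2BD, a further H2B gene (bases 26158146 to 26171349, plus strand), had 4.73 and 3.93 FPKM in PRDM16 libraries, against 4.32 and 6.05 FPKM in control vector libraries. Its groups overlapped as well.

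HIST1H2BJ (chromosome 6, bases 27125897 to 27132750, minus strand) was the one tested locus with higher values in both PRDM16 libraries. It had 2.90 and 3.21 FPKM in PRDM16 libraries, against 2.33 and 2.14 FPKM in control vector libraries. Its means were 3.05 ± 0.220 FPKM in PRDM16 libraries and 2.23 ± 0.131 FPKM in control vector libraries (SD, n = 2 each). The log2 change of 0.33 (SE 0.13) did not pass, with a limma adjusted p of 0.689. The shared locus of HIST1H2BB and HIST1H2BC had 1.39 and 1.65 FPKM in PRDM16 libraries, against 1.96 and 1.45 FPKM in control vector libraries, so the groups overlapped.

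The H4 gene HIST1H4C (chromosome 6, bases 26103876 to 26104310, plus strand) had 1.67 and 2.55 FPKM in PRDM16 libraries, against 2.74 and 1.72 FPKM in control vector libraries. Replicates of each group differed by more than the group means did. HIST1H4H (bases 26277609 to 26285638, minus strand) had 0.820 and 0.995 FPKM in PRDM16 libraries, against 0.897 and 2.01 FPKM in control vector libraries. The one high value, in the second control vector library, set the difference of its means.

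Among these 8 loci, 1 had both PRDM16 values above both control vector values, where 21.1% of all tested loci did, and 1 had both below, where 20.3% did. Counts of 1 among 8 do not stand apart from these shares.

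**Figure D3:**
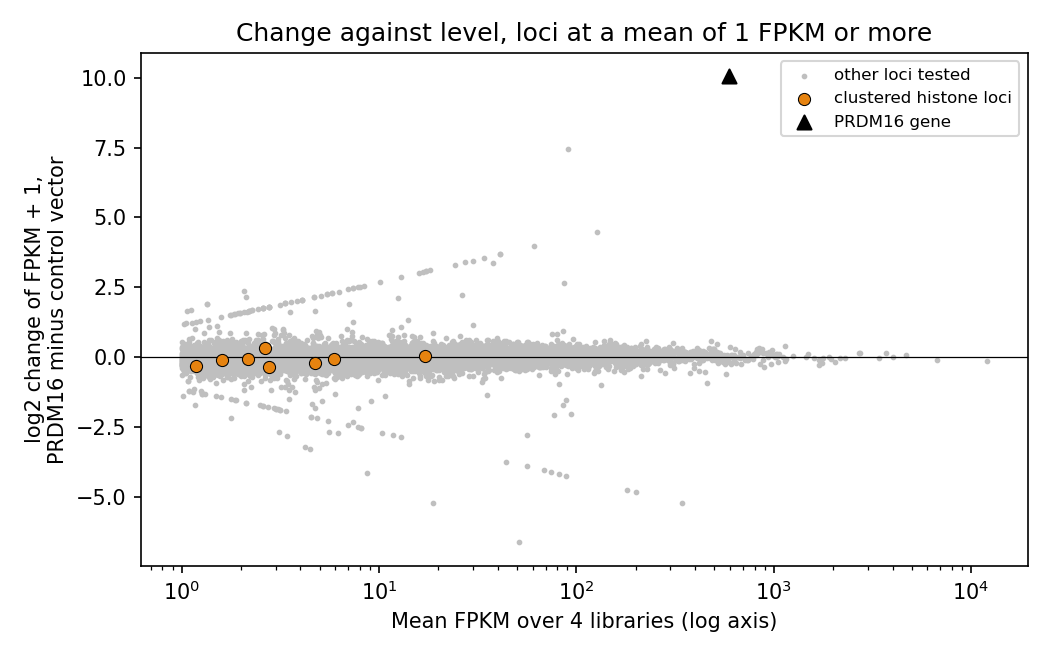
Log2 change of FPKM + 1, PRDM16 minus control vector, against mean FPKM (log axis) for the 13246 loci tested, with the 8 clustered histone loci in orange and PRDM16 as a black triangle. The 8 histone loci lie in the dense band around 0, between −0.36 and 0.33.

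No H3 gene reached a mean of 1 FPKM. Among H3 genes with a locus of their own, HIST1H3D had the highest level. It had 0.869 and 0.833 FPKM in PRDM16 libraries, against 0.603 and 0.172 FPKM in control vector libraries. Both PRDM16 values were higher. HIST1H2AD, an H2A gene beside it, had 1.04 and 1.13 FPKM in PRDM16 libraries, against 0.522 and 0.0932 FPKM in control vector libraries. It too was higher in both PRDM16 libraries, and at both genes the lowest value was that of the second control vector library.

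In RefSeq, HIST1H3D and HIST1H2AD have the same start site, so a single promoter window was taken for both. The GENCODE model of HIST1H3D, bases 26196840 to 26197250 on the minus strand, is not next to this window, since HIST1H2AD lies between them. Which start the HIST1H3D reads came from was not tested. The window is shown here beside those of HIST1H2AC, the H2A gene of highest level, and of the 3 H2B genes of highest level. Each line gives the 250 bases before the start on the strand of the gene, from RefSeq on GRCh38.p14, 5′ to 3′. Capitals mark ATTTGCAT (the octamer known from H2B promoters), TATAAA and CCAAT, on either strand, and a TATAAA match may overlap its own reverse complement.
HIST1H3D and HIST1H2AD, chr6:26199294-26199543, minus strand: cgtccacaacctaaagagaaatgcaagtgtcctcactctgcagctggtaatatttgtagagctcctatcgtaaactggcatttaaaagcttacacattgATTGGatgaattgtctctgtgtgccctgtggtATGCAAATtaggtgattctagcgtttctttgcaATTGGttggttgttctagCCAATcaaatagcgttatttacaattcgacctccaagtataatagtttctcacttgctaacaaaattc
HIST1H2AC, chr6:26123922-26124171, plus strand: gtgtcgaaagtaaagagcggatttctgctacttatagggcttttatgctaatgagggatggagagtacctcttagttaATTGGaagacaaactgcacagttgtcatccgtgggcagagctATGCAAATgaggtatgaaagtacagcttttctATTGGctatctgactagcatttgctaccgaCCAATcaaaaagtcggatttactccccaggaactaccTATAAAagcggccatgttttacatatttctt
HIST1H2BD, chr6:26157871-26158120, plus strand: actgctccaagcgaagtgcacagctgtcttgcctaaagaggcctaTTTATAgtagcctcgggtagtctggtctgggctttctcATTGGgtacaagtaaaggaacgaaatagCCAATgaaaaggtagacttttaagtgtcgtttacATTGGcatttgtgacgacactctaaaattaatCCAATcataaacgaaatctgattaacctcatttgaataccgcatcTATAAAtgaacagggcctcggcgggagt
HIST1H2BJ, chr6:27132796-27133045, minus strand: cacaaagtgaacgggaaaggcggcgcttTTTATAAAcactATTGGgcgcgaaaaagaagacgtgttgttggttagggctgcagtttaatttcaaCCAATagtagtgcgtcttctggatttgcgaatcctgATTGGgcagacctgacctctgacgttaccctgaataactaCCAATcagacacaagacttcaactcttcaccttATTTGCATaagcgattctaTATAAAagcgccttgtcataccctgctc
HIST1H2BK, chr6:27146859-27147108, minus strand: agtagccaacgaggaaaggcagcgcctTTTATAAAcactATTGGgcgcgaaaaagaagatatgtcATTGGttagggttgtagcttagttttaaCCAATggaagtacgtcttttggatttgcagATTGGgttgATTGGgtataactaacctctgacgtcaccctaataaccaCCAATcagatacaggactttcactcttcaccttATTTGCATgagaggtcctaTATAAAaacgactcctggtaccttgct

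Of the 74 members, 64 had a promoter in the RefSeq table of 35116 promoters. The octamer was in 26 of the 64, against 1.63% of all promoters, and it was in 14 of 18 H2B and 11 of 16 H2A promoters, each gene counted by its own class. It was in 1 of 12 H3 promoters, the shared one printed above, and in 0 of 12 H4 and 0 of 6 H1 promoters. TATAAA was in 42 of the 64 and in 10.7% of all promoters, and CCAAT was in 55 of the 64 and in 32.0% of all promoters. A match is a run of letters and not a measured binding site.

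The octamer was similarly frequent in H2B promoters of higher and lower level. It was in 4 of the 5 H2B promoters whose locus reached a mean of 1 FPKM and in 10 of the 13 below. TATAAA was in 5 of the 5 and in 7 of the 13, and neither split was tested. HIST1H2BB and HIST1H2BC are both among the 5, though they share 1 locus and 1 value. HIST1H2BD, second among H2B genes by level, was the one of the 5 without the octamer.

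Many members face each other across 1 promoter. In 11 pairs on opposite strands the 250-base windows shared between 214 and 247 bases, and the window of HIST1H3D and HIST1H2AD is counted once for each gene. HIST1H2AC and HIST1H2BC share 245 bases, and both are among the loci of mean 1 FPKM or more. The divergent partner of HIST1H3D and HIST1H2AD is HIST1H2BF, which had 0.110 and 0.119 FPKM in PRDM16 libraries, against 0.138 and 0.0984 FPKM in control vector libraries. In each library the HIST1H2BF value matched 1 step of the 381-base H2B members described below, where 1 step is read as 1 fragment. At that level it cannot be seen whether HIST1H2BF shared the higher PRDM16 values of the genes across its promoter. The partner of HIST1H2BJ is HIST1H2AG, with 0.397 and 0.562 FPKM in PRDM16 libraries, against 0.445 and 0.504 FPKM in control vector libraries, so its groups overlapped.

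The fragments behind these low values were few. At members with 1 annotated transcript of 411 bases (H3), 312 bases (H4) or 381 bases (H2B), every value above 0 was a whole multiple of 1 step per library, within 0.1 of a step. For the 4 H2A members of 393 bases, HIST1H2AD among them, the search found no common step, so no fragment number is given for them. The search drew its steps from the lowest value in each library. HIST1H2AK set that value in the first control vector library, at 0.0606 FPKM, so a step shared by the other H2A members could be missed. In the second control vector library HIST1H2AD and HIST1H2AB had the same lowest value, 0.0932 FPKM, so HIST1H2AD too may rest on few fragments. If 1 step is read as 1 fragment, HIST1H3D rests on 9 and 8 fragments in PRDM16 libraries, against 5 and 2 fragments in control vector libraries. The exact Poisson 95% intervals were 4.12 to 17.1 and 3.45 to 15.8 fragments in PRDM16 libraries, against 1.62 to 11.7 and 0.242 to 7.22 fragments in control vector libraries. All of these intervals overlap, and they cover counting error only. The 7 H3 loci of that length together gave 16 and 12 fragments in PRDM16 libraries, against 11 and 10 fragments in control vector libraries.

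HIST1H2BK was the member with the most fragments of those that could be read this way. It had 157 and 144 in PRDM16 libraries, against 143 and 142 in control vector libraries. The steps put the depth of the PRDM16 libraries at 1.25 and 1.16 times that of the first control vector library, and the depth of the second control vector library at 1.40 times. The similar numbers of fragments thus correspond to the unequal FPKM of the 2 control vector libraries. HIST1H2BK follows the same step as the other 381-base genes, so its FPKM was set on a coding-length model.

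The HIST2 cluster on chromosome 1 was the one cluster whose summed level did not overlap between groups, an observation made after its values were seen. Its 14 loci, 7 of them above 0 and none at a mean of 1 FPKM, summed to 0.807 and 0.740 FPKM in PRDM16 libraries, against 1.82 and 1.70 FPKM in control vector libraries. The ratio was 0.440. It lay between 0.421 and 0.459 when any 1 library was left out, which adds no support, since the cluster was picked for this gap. The main part was the H2A gene HIST2H2AC, with 0.339 and 0.457 FPKM in PRDM16 libraries, against 1.19 and 0.831 FPKM in control vector libraries. Its annotated transcript has 390 bases, and no fragment number was read for it. For the 381-base H2B members 1 step was 0.0984 to 0.138 FPKM, so HIST2H2AC may rest on few fragments. In a limma fit with no filter on low values, HIST2H2AC had a log2 change of −0.52 (SE 0.13) and an adjusted p of 0.745. The HIST1 cluster summed to 45.9 and 46.1 FPKM in PRDM16 libraries, against 50.6 and 43.5 FPKM in control vector libraries, and the 4 HIST3 loci were listed at 0.

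Pairs of nearly identical copies in the HIST2 cluster cannot be separated well by short reads. HIST2H4A and HIST2H4B, and HIST2H3A and HIST2H3C, are such copies and were listed at 0, and HIST2H2AA4 was at 0 while its copy HIST2H2AA3 shares a locus with HIST2H2BE. How the authors treated reads that map to several places is not given in the sources used here. Strand was missing from them too, and members that overlap on opposite strands may share reads.

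Over all 49 detected members, neither direction was more frequent than in the whole table. Both PRDM16 libraries were above both control vector libraries at 4 members, 8.16% of the 49, where the share of all detected loci was 15.7%. They were below at 8 members, 16.3% of the 49, where it was 17.7%. The 4 higher members were HIST1H2BJ, HIST1H2AD, HIST1H3D and HIST1H2BI. The 8 lower ones included HIST1H2AC and HIST2H2AC, and 37 members overlapped. With no filter, 5 of the 49 had an unadjusted limma p under 0.05, against 6.37% of all 28335 loci in that fit, and the lowest adjusted p was 0.704. Of these 5, HIST1H2BI, HIST1H2AH and HIST1H3I were listed at 0 in both libraries of one group and had under 0.150 FPKM in the other group.

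The other members just below the tested level showed no shared direction. The shared locus of HIST1H2AL and HIST1H2BN had 0.909 and 0.595 FPKM in PRDM16 libraries, against 0.737 and 1.04 FPKM in control vector libraries. HIST1H2BH had 0.551 and 0.714 FPKM in PRDM16 libraries, against 0.965 and 0.689 FPKM in control vector libraries. The shared locus of HIST1H2AM and HIST1H3J had 1.20 and 0.329 FPKM in PRDM16 libraries, against 0.753 and 0.261 FPKM in control vector libraries. In all of these the groups overlapped, and at the last the PRDM16 libraries differed from each other by more than the groups did.

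S phase genes separated the second control vector library from the other libraries. The clustered histone sum was lowest there too, at 45.2 FPKM, close to the 46.7 and 46.9 FPKM of the PRDM16 libraries. The first control vector library lay farther from them, at 52.4 FPKM. Relative to the mean of the other 3 libraries, the median of 14 S phase genes in the second control vector library was 0.519. All 14 were lowest there. The replicative helicase gene MCM4 had 230 and 249 FPKM in PRDM16 libraries, against 261 and 113 FPKM in control vector libraries. On the same scale the clustered histone sum was 0.929, and 1.02 without HIST1H2BK. Of the 8 tested histone loci, 3 were lowest and 3 were highest in that library. HIST1H2BK alone was at 0.774 of the other libraries. The part of S phase content in the histone values was not tested, and fewer cells in S phase cannot be told apart from less S phase mRNA per cell.

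**Figure D4:**
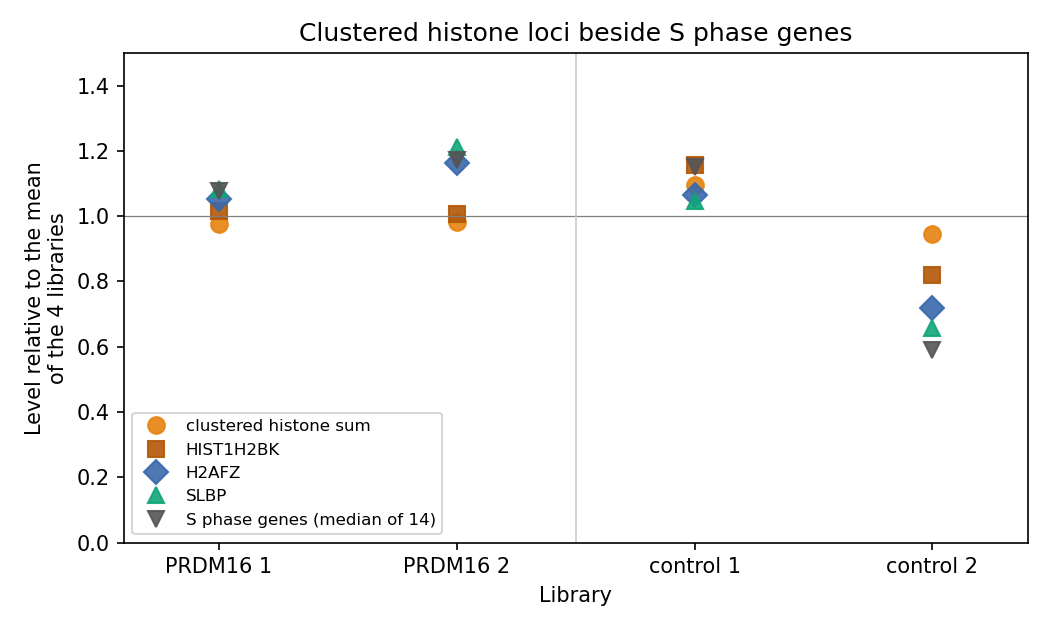
Level in each library relative to the mean of the 4 libraries for the summed FPKM of all clustered histone loci, HIST1H2BK, the variant gene H2AFZ, SLBP and the median of 14 S phase genes, with PRDM16 libraries left and control vector libraries right. In the second control vector library S phase genes stand at 0.590 and the clustered histone sum at 0.945.

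The factors that make and process histone mRNA were expressed in all libraries. SLBP, which binds the stem-loop, had 109 and 122 FPKM in PRDM16 libraries, against 105 and 65.9 FPKM in control vector libraries. NPAT, the coactivator of clustered histone genes, had 4.58 and 4.79 FPKM in PRDM16 libraries, against 4.46 and 3.69 FPKM in control vector libraries. CASP8AP2, which takes part in histone mRNA processing, had 5.74 and 5.76 FPKM in PRDM16 libraries, against 5.31 and 3.86 FPKM in control vector libraries. All 3 were higher in both PRDM16 libraries, where 21.1% of all tested loci were, and all 3 were lowest in the second control vector library. None passed, with a limma adjusted p of 0.689 for SLBP and CASP8AP2 and 0.693 for NPAT.

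Gene lists were counted over loci naming 1 gene, and list members at loci with several names are given beside the counts. Of 14 tested genes of histone mRNA transcription and processing, none passed limma and all 14 had a log2 change above 0, with a median of 0.19, where 50.7% of all tested loci were above 0. Unadjusted p was under 0.05 for 1 of them, the cleavage factor gene CSTF2, with 24.7 and 28.1 FPKM in PRDM16 libraries, against 22.3 and 17.9 FPKM in control vector libraries. CCNE1, a cyclin that drives entry into S phase, had 5.75 and 6.66 FPKM in PRDM16 libraries, against 5.61 and 3.996 FPKM in control vector libraries. Both PRDM16 libraries were above both control vector libraries at 7 of the 14, where 21.1% of all tested loci were. The second control vector library was low across this list too. Relative to the mean of the other libraries, its median over the 14 was 0.741, with a range from 0.322 to 0.973. The part of that library in the log2 changes of the list was not tested.

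Of 14 tested S phase genes, none passed and all 14 had a log2 change above 0, with a median of 0.46 and 0 at an unadjusted p under 0.05. Both PRDM16 libraries were above both control vector libraries at 1 of the 14, CDT1, which loads the replicative helicase, with 44.3 and 45.8 FPKM in PRDM16 libraries, against 37.7 and 24.1 FPKM in control vector libraries. The first control vector library lay between the PRDM16 libraries at 10 of the 14, and the second lay below both PRDM16 libraries at all 14. At shared loci, that of GINS2 had 37.6 and 37.0 FPKM in PRDM16 libraries, against 35.1 and 33.7 FPKM in control vector libraries, and that of PRIM1 had 342 and 353 FPKM in PRDM16 libraries, against 349 and 328 FPKM in control vector libraries. The locus naming GINS2 and C16orf74 was higher in both PRDM16 libraries, and the locus naming PRIM1 and NACA overlapped. Neither value can be credited to the S phase gene alone.

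Replication-independent histone genes, whose mRNAs have introns or poly(A) tails and are made through the cell cycle, include some that were far higher per length than the clustered ones. H2AFZ, an H2A variant gene, had 496 and 547 FPKM in PRDM16 libraries, against 502 and 339 FPKM in control vector libraries. H3F3B, which encodes histone H3.3, had 360 and 388 FPKM in PRDM16 libraries, against 357 and 310 FPKM in control vector libraries. Both lay well above HIST1H2BK, the highest clustered gene. H1F0, a linker histone gene known from cells that have left the cycle, had 8.12 and 6.71 FPKM in PRDM16 libraries, against 7.35 and 16.3 FPKM in control vector libraries, where the second library was the high one. Of 9 tested loci naming 1 gene of this list none passed limma, with 0 at an unadjusted p under 0.05, and 7 had a log2 change above 0. Of the 9, 2 were higher in both PRDM16 libraries, H3F3B among them, and 0 were lower in both. The shares of all tested loci were 21.1% higher and 20.3% lower. Both tested loci that this list shares with other genes were lower in both PRDM16 libraries, and their values cannot be credited to the histone gene alone. The locus of H1FX, a linker histone variant, had 43.5 and 38.2 FPKM in PRDM16 libraries, against 51.4 and 61.6 FPKM in control vector libraries, with an unadjusted limma p of 0.0215 and an adjusted p of 0.689. The locus of CENPA, the centromeric H3 variant, had 63.2 and 62.0 FPKM in PRDM16 libraries, against 70.9 and 77.5 FPKM in control vector libraries, with an unadjusted limma p of 0.0518. Of 8 tested loci naming 1 histone chaperone gene none passed either, with 0 at an unadjusted p under 0.05, and 6 had a log2 change above 0.

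Other RNAs that lack a poly(A) tail gave a mixed picture of what these libraries captured. RN7SK, a small nuclear RNA that holds back transcription elongation, had 3.16 and 3.42 FPKM in PRDM16 libraries, against 3.77 and 2.68 FPKM in control vector libraries. RMRP, the RNA of an RNA-processing enzyme, had 6.51 and 5.05 FPKM in PRDM16 libraries, against 6.11 and 5.57 FPKM in control vector libraries. The groups overlapped at RN7SK and RMRP, whose levels were near those of the higher clustered histone genes. RN7SL1 and RN7SL2, RNAs of the signal recognition particle, lie at loci with several names and were higher. The RN7SL1 locus had 48.2 and 49.0 FPKM in PRDM16 libraries, against 49.9 and 33.9 FPKM in control vector libraries. The RN7SL2 locus had 56.1 and 144 FPKM in PRDM16 libraries, against 55.4 and 46.5 FPKM in control vector libraries, and its 1 high value was in the second PRDM16 library. RPPH1, TERC and SCARNA2 were below 1 FPKM in every library. TERC had 0.186 and 0.187 FPKM in PRDM16 libraries, against 0.108 and 0.155 FPKM in control vector libraries, and SCARNA2 had 0 and 0.301 FPKM in PRDM16 libraries, against 0.349 and 0.332 FPKM in control vector libraries. TERC and the RN7SL2 locus were thus higher and SCARNA2 lower in both PRDM16 libraries. Of all detected loci, 15.7% were higher and 17.7% lower in both, and the values of TERC and SCARNA2 are near the floor. RNU1-1 and RNU2-1, genes for spliceosomal RNAs, were listed at 0.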

How the data were processed

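RNA-seq was made from total RNA of 786-O cells, 2 libraries with PRDM16 lentivirus and 2 with a control vector. Per the submitters' processing notes, reads went through TopHat2 2.1.0, Trim Galore, Cuffdiff and Cufflinks 2.2.1 with the build hg38, in an order those notes do not give. Every locus has 1 value in each library of the deposited table, read here as FPKM because Cufflinks gives that unit and the values are not whole and have unequal totals. The header names neither the unit nor the annotation.

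The groups come from the labelled vector. Loci with a mean of at least 1 FPKM were compared with limma 3.58.1 (R 4.3.3) on log2(FPKM + 1), with a variance trend, two-sided, Benjamini-Hochberg threshold 0.05. That scale understates changes of low genes. Data were simulated for the 13246 loci, with changed loci at a mean of at least 5 FPKM. The test recovered 0.4% of log2 changes of 0.5, 44.4% of 1, 78.4% of 2 and 91.2% of 3, with a mean of 2.6 false calls. Only 2 of the 8 tested histone loci reached that mean, so these rates do not hold for the others. Annotation and stem-loops come from GENCODE release 29, promoters from RefSeq. The steps of low values give relative depth, and the absolute depth is unknown. Python 3.11.15, scipy 1.17.1 and matplotlib 3.10.9 were used for the rest.

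Members of mean 1 FPKM or more and the next 6 by mean were named, with SLBP, NPAT, CASP8AP2, MCM4, H2AFZ, H3F3B and H1F0 whatever their values. The rule also allowed up to 4 genes of each list with the smallest p, of which CSTF2, CCNE1 and CDT1 are given. HIST1H2BI, HIST1H2AH, HIST1H3I, HIST1H2BF, HIST1H2AG, HIST1H2AK, HIST1H2AB and HIST1H1E were named after their values were seen. So were the genes at loci with several names outside the members, the other RNAs without a poly(A) tail and the genes listed at 0. Members and lists were chosen with earlier results of these data known. Alternatives covered pseudocounts, filters, scalings, the variance trend, a replicate block, each library left out and loci naming 1 gene.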

Additional observations from a re-analysis of the deposited data

How the results depend on the processing

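No clustered histone locus was called by limma under any alternative run. The number of loci called in the whole table was 3, and it became 5 with a pseudocount of 0.1, 1 with no filter, 6 with no variance trend and between 16 and 39 with 1 library left out. Replicate numbers are shared by the groups only as numbers, and the deviations of same-numbered libraries correlated at −0.058 across loci, so they were not treated as pairs. With the replicate number as a block, 5 loci were called and 0 of them were histone loci. The members higher in both PRDM16 libraries numbered 4 with no filter (49 members), 0 at a mean of at least 5 FPKM (2 members) and between 1 and 3 with 1 library left out. Those lower in both numbered 8, 0 and between 2 and 5 under the same settings. The filters change how many members enter, and a group of 1 library overlaps less often than one of 2. The median log2 change of the 8 loci lay between −0.193 and 0.0555 with 1 library left out, and the summed ratio between 0.893 and 1.04. With 1 library left out the sign of the log2 change turned at 5 loci, none of them called. HIST1H1C ranged from −0.203 to 0.0730 and the locus of HIST1H2BB and HIST1H2BC from −0.233 to 0.0379, both above 0 without the first control vector library. HIST1H2BK ranged from −0.184 without the second control vector library to 0.284. HIST1H4H ranged from −0.661 to 0.00671, above 0 without the second. HIST1H4C ranged from −0.282 to 0.175, at 0.175 without the first control vector library and 0.154 without the first PRDM16 library. The cause was not tested. With 1 library in a group, that library is assumed to vary like the other group. Few fragments limit what can be seen at loci under 1 FPKM.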
